A study of Mus musculus with 48 samples.

Results

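Lymphatic endothelial cells (LECs) of the heart were compared with LECs of the diaphragm in mice infused with angiotensin II (angII). The comparison used every angII LEC library, 5 from the heart and 5 from the diaphragm, which are 10 of the 48 RNA-seq libraries in the series. Mice 3, 14, 15 and 18 gave a library from both tissues, mouse 12 gave only a heart library and mouse 4 only a diaphragm library. All were male mice of the C57BL/6 strain and carried the Prox1-eGFP knock-in, in which the Prox1 locus drives the green reporter, and received angiotensin II with bovine serum albumin from an implanted pump for 5 to 6 weeks. They were 8 (mice 3 and 4), 14 (mice 14 and 15) or 16 (mice 12 and 18) months old by the labels. The LEC libraries of mice 3, 4, 12 and 14 were sequenced in batch 1 and those of mice 15 and 18 in batch 2. The sort kept eGFP-positive cells that carried the endothelial protein CD31 and lacked both the leukocyte protein CD45.2 and the dead-cell dye DAPI, so the reporter of Prox1 itself chose the cells. Heart blood endothelial cells (BECs, eGFP-negative in the same sort) and a cardiomyocyte fraction pelleted from the digested hearts, both from angII mice, give the level of a transcript in the neighbouring heart cells. The cardiomyocyte libraries were all in batch 3, so their differences from LECs cannot be told apart from those of the batch. LECs of ctrl mice (pump with albumin alone, 4 heart and 4 diaphragm libraries) and of mice given angiotensin II with VEGFCc156s (angII+VEGFC, 3 and 3 libraries) show the same tissue contrast in other animals. By the labels the ctrl mice were 8 to 16 and the angII+VEGFC mice 8 to 15 months old, and the LEC libraries of both groups were in batches 1 and 2.

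Lymphatic vessels drain fluid, proteins, lipids and immune cells from tissues. Their endothelium is specified and kept by the transcription factor PROX1, takes up hyaluronan through LYVE1, displays podoplanin (PDPN) and responds to VEGF-C through VEGFR3, the product of Flt4. The heart has a lymphatic network in and beneath the epicardium, and the diaphragm drains both its own muscle and the peritoneal and pleural cavities. Endothelial cells of different organs are known to differ in genes for transport, metabolism and matrix, and the contrast asks which transcripts separate the 2 lymphatic beds under angiotensin II.

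The values are TPM (transcripts of a gene per fixed total of transcripts in the library), so the sequencing depth is unknown. Between 19957 and 25896 genes reached 1 TPM in the heart libraries and between 20062 and 23691 in the diaphragm libraries, a mean difference of 1250 that was within the spread between libraries (two-sided exact permutation test, p = 0.341, with 0.00794 the smallest p that 5 against 5 allow). The diaphragm library of mouse 4 stood apart. Its mean correlation with the other diaphragm libraries was 0.817 on the log2 scale, against 0.899 to 0.928 for the other 9 libraries with those of their own tissue, and 105 of the 6903 genes at 10 TPM or more in the other 4 diaphragm libraries were listed at 0 in it, against 0 to 5 such genes in the other libraries. Counts of calls are therefore also given without it where they differ.

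The markers of the sort were present in all 10 libraries. Per library, in the order of mice 3, 15, 12, 18 and 14 for the heart and 3, 15, 4, 18 and 14 for the diaphragm, which is kept throughout, Prox1 was at 161, 97.6, 229.8, 163 and 143 TPM in the heart and at 175, 241, 245, 224 and 233 TPM in the diaphragm. Pdpn was at 62.6, 70.3, 85.6, 58.1 and 58 TPM and 106, 124, 54.6, 92.8 and 90.6 TPM in the same order. Both markers overlapped between the tissues and did not pass the test, with heart-minus-diaphragm log2 differences of −0.62 ± 0.20 (SE) for Prox1 (limma, adjusted p = 0.283) and −0.50 ± 0.23 for Pdpn (adjusted p = 0.573). With the mouse as a fixed block, Pdpn passed (adjusted p = 0.0483) and Prox1 did not (adjusted p = 0.187). The fixed block used only the mice with both tissues, here and below. It thus left out the heart library of mouse 12 and the diaphragm library of mouse 4. Heart BECs averaged 2.97 ± 0.905 TPM of Prox1 and 2.06 ± 1.42 TPM of Pdpn (SD, n = 5). The third marker, Lyve1, differed between the tissues and is described with the lymphatic genes.

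Of 27250 genes tested, 161 (0.591%) passed an adjusted p of 0.05, 113 of them higher in the heart (0.415% of the genes tested) and 48 higher in the diaphragm (0.176%). An unadjusted p under 0.05 (limma) was reached by 2314 of the 27250, to be set beside the unadjusted counts of the lists below. Differences are heart minus diaphragm on the log2(TPM + 1) scale, adjusted for age and batch, and the added 1 TPM makes the differences of low genes smaller than their ratio of TPM. The median absolute difference was 2.18 for the heart-higher genes and 1.24 for the diaphragm-higher genes. The values of the 5 heart and 5 diaphragm libraries did not overlap for 97 of the 113 and 39 of the 48, against 669 of all genes tested (2.46%). With the mouse as a random block, 372 genes passed (267 higher in the heart and 105 in the diaphragm), among them all 161, and with the mouse as a fixed block 395 passed (275 and 120), among them 156 of the 161. The fixed block also lacks the diaphragm library of mouse 4, so its gains cannot be told apart from those of leaving that library out. Without the diaphragm library of mouse 4, 337 genes passed (234 and 103), again with all 161 among them. The count fell to 29 (25 higher in the heart and 4 in the diaphragm) without the heart library of mouse 15, and to 58 (49 and 9), 73 (55 and 18) and 89 (71 and 18) without the diaphragm libraries of mice 14, 15 and 18. It was 88 (63 and 25) and 105 (77 and 28) without the heart libraries of mice 14 and 18. The diaphragm-higher calls thus fell from 48 to as few as 4. Every one of the 161 kept its direction in each of these fits, and all 161 had it also within batch 1 (3 heart and 3 diaphragm libraries) and within batch 2 (2 and 2). The 161 were chosen in these same libraries, so a kept direction is not an independent check. Within batches 1 and 2 the differences were, for example, 4.35 and 3.79 for Ahsg and −1.40 and −1.61 for Lyve1.

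**Figure D1:**
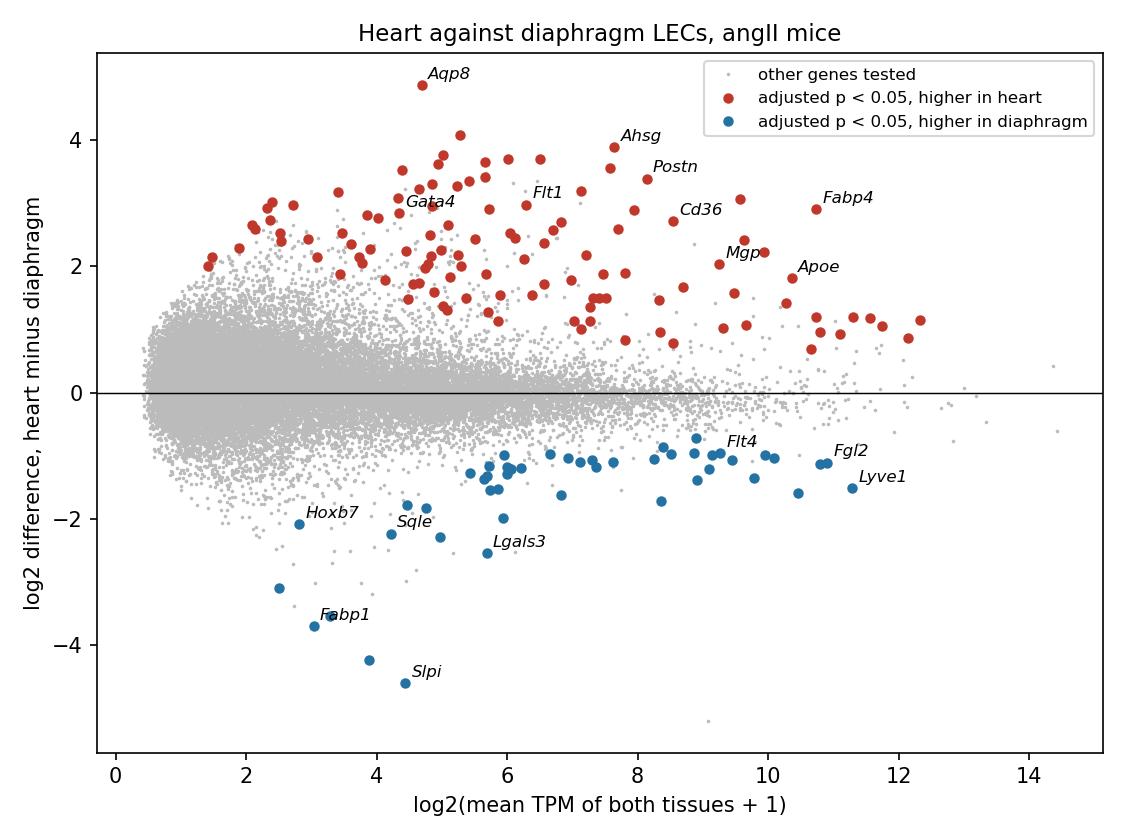
The log2 difference, heart minus diaphragm, is plotted for each of the 27250 genes tested against the log2 of the mean TPM of both tissues plus 1. The 113 genes that passed the test and were higher in the heart are red, the 48 that were higher in the diaphragm are blue and all others are grey.

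The largest heart-higher differences under the naming rule, in Aqp8, Colec11 and Ahsg, were in genes with a higher mean in heart LECs than in heart BECs and the cardiomyocyte fraction. Aqp8, a water channel, was at 11.4, 35.7, 17.7, 134 and 48.7 TPM in the heart libraries and at 0.697, 0, 0, 0.25 and 0 TPM in the diaphragm libraries. Ahsg, which encodes fetuin-A, a secreted glycoprotein best known as a liver product that binds calcium phosphate, was at 109.7, 506, 335, 664 and 258 TPM against 9.6, 61.9, 6.48, 27 and 13.3 TPM. In both genes every heart library lay above every diaphragm library. The naming rule takes only genes without overlap between the tissues, so for the genes it names this separation was set by the choice. The heart values themselves spread over a wide range, lowest in mouse 3 and highest in mouse 18. The differences were 4.88 ± 0.57 for Aqp8 (adjusted p = 0.00197) and 3.89 ± 0.26 for Ahsg (adjusted p = 3.62e-05, the smallest of all genes). Heart BECs had 0.135 ± 0.14 TPM of Aqp8 and 43.3 ± 23.4 TPM of Ahsg, and the cardiomyocyte fraction 0.577 ± 0.477 and 20.6 ± 3.36 TPM (mean ± SD, n = 5 each). A list of 6 hepatocyte transcripts that does not hold Ahsg summed to 5.02 to 9.14 TPM in the heart LEC libraries.

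The promoters of Aqp8 and Ahsg are printed because these genes led the heart-higher transcripts, and that of Hand2os1 because its window overlaps that of the heart transcription factor gene Hand2 on the other strand. The sequences are from RefSeq (GRCm38.p6). The windows run from 250 bases before to 50 bases after the RefSeq start. Capitals mark the letters AGATAA, a form of the site that GATA factors bind. These letters were searched on both strands because Gata4 was itself higher in the heart. Other forms of the site were not searched, so the marks and counts of these letters do not cover all possible GATA sites.
Aqp8 (chr7:123462044-123462343, + strand): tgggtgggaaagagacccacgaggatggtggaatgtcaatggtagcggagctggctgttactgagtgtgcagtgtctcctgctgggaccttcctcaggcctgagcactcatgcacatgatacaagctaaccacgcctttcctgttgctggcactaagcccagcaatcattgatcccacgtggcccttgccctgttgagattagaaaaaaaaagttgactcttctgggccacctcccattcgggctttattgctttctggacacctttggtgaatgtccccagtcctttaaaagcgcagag
Ahsg (chr16:22891765-22892064, + strand): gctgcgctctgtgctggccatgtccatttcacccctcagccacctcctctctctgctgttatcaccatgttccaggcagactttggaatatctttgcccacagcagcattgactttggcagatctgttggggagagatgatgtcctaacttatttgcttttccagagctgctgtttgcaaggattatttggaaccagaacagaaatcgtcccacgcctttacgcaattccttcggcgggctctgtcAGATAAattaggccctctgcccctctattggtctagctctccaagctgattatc
Hand2os1 (chr8:57320810-57321109, - strand): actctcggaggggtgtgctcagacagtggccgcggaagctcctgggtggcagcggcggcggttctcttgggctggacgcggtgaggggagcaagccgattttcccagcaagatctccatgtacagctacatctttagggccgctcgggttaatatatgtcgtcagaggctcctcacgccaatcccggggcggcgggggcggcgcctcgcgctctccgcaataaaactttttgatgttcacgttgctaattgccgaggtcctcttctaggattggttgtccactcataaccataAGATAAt
The letters were at position 247 of the Ahsg window, counted from its first base, at position 294 of the Hand2os1 window and nowhere in the Aqp8 window. Of 82 promoters that matched 65 of the 113 heart-higher genes, 9 (11.0%) held the letters on either strand, against 3672 of 32851 promoters of all genes (11.2%) and 3 of 44 promoters (6.82%) of the diaphragm-higher genes, so their share among the heart-higher genes was close to that of all promoters.

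More genes were higher in heart LECs than in diaphragm LECs, heart BECs and the cardiomyocyte fraction. Ephx2, the soluble epoxide hydrolase that breaks down epoxyeicosatrienoic acids, was at 25.4, 122, 136, 239 and 82.4 TPM in the heart and 1.77, 8.69, 0, 15.9 and 7.24 TPM in the diaphragm, without overlap, a difference of 3.70 ± 0.30 (adjusted p = 0.000163). Heart BECs had 12.4 ± 3.35 TPM of it. Coch, which encodes the matrix protein cochlin, was at 6.9, 47.7, 77.4, 80 and 19 TPM against 0.655, 3.22, 0, 3.67 and 2.94 TPM (3.23 ± 0.39, adjusted p = 0.00251), and its mean in heart BECs was 0.393 ± 0.413 TPM. A2m, the protease inhibitor alpha-2-macroglobulin, was at 10.6, 44.6, 16.8, 191 and 25.2 TPM against 1.15, 1.33, 0.309, 1.53 and 3.97 TPM (3.63 ± 0.57, adjusted p = 0.0113). Its heart values ranged widely, with the highest again in mouse 18. Rnase1, a secreted ribonuclease of endothelium, averaged 37 ± 31.6 TPM (SD, n = 5) in the heart and 2.74 ± 3.05 TPM in the diaphragm (3.52 ± 0.54, adjusted p = 0.0104). Lsamp, a cell adhesion protein anchored to the outer membrane, averaged 51.2 ± 22.5 and 4.32 ± 3.8 TPM (3.31 ± 0.48, adjusted p = 0.00728). Colec11, a soluble lectin that starts complement activation, averaged 71.7 ± 17.1 and 3.7 ± 2.39 TPM (4.08 ± 0.37, adjusted p = 0.000477), and heart BECs held 42.9 ± 13.5 TPM of it.

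**Figure D2:**
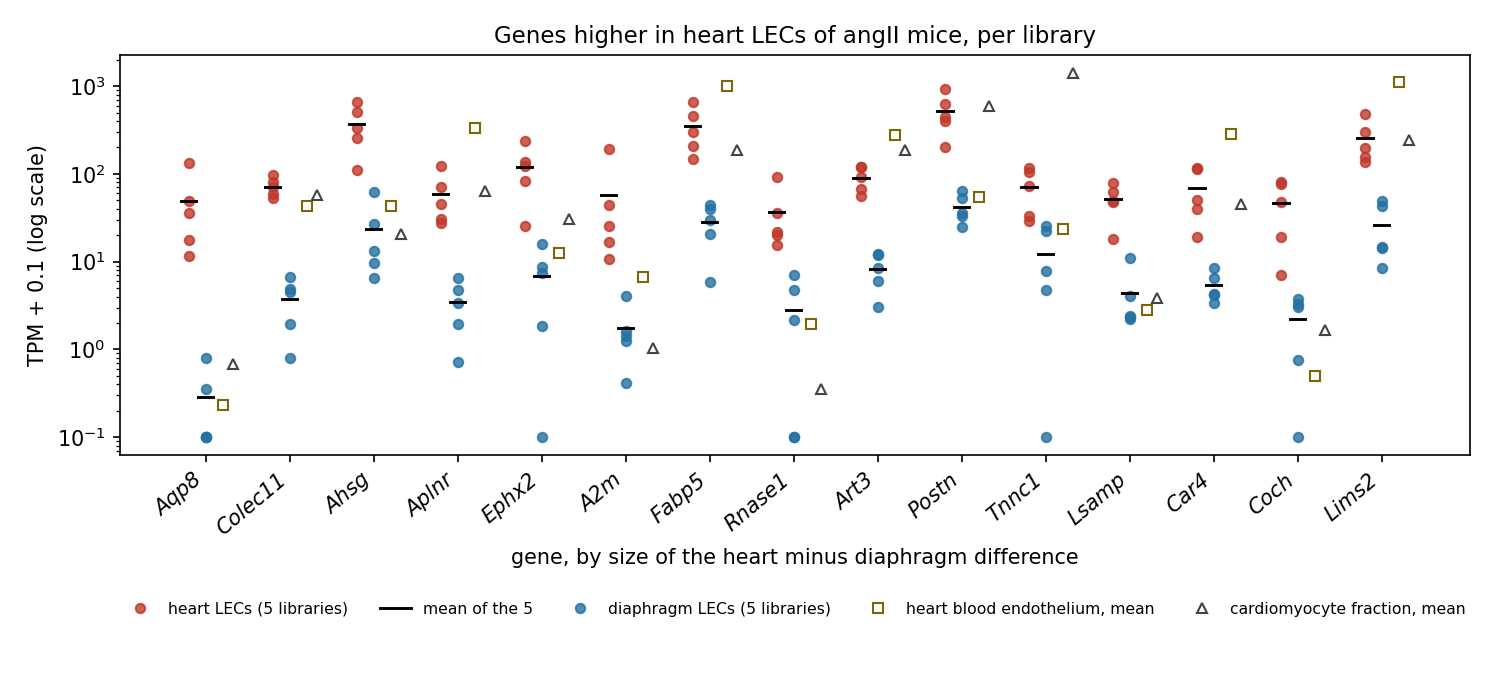
TPM plus 0.1 on a log scale is shown for the 15 genes with the largest heart-higher difference under the naming rule. Each red point is a heart LEC library and each blue point a diaphragm LEC library (5 each, with bars at their means), and the open square and triangle are the means of heart BECs and of the cardiomyocyte fraction. The red and blue points separate in every gene, as the naming rule requires, while the square lies above the red points in Aplnr, Fabp5, Art3, Car4 and Lims2.

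Across all 113 heart-higher genes, the mean of heart BECs was above that of heart LECs for 74 (65.5%, against 24.8% of all genes tested) and the mean of the cardiomyocyte fraction for 36 (31.9%, against 9.77%). Neither was above heart LECs for 22 genes (19.5%, against 69.7% of all genes tested). Transcripts of blood capillaries moved with this group. The 10 blood endothelium markers summed to 5104 to 11760 TPM in heart LECs, to 2609 to 3647 TPM in diaphragm LECs and to 22680 to 30450 TPM in heart BECs, so that the mean of heart LECs was 30.9% and that of diaphragm LECs 11.6% of heart BECs. In the 74 genes, the median heart LEC mean was 33.9% of the heart BEC mean, against 75.9% over all genes tested in which heart BECs were above heart LECs. The part of blood endothelial RNA in these results was not tested, and in sorted bulk RNA a different number of such cells and a different level per cell cannot be told apart.

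**Figure D3:**
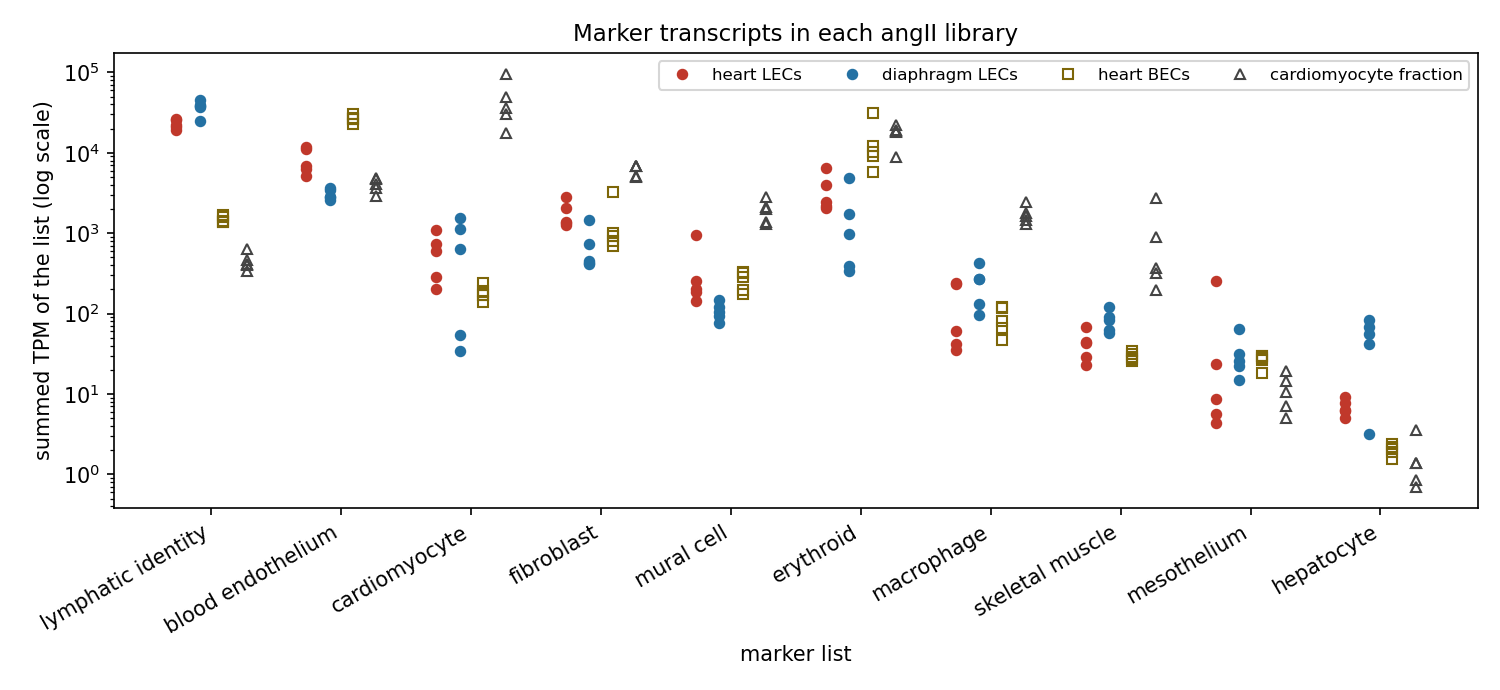
Summed TPM of 10 marker lists is shown on a log scale for each angII library of heart LECs, diaphragm LECs, heart BECs and the cardiomyocyte fraction. Blood endothelium markers lie at 5104 to 11760 TPM in heart LECs and 2609 to 3647 TPM in diaphragm LECs, and the cardiomyocyte markers of diaphragm LECs spread from 33.9 to 1539 TPM.

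Fabp4, a fatty acid carrier of capillary endothelium, was at 2648, 3970.4, 1662, 1935 and 4914 TPM in the heart and at 286, 218, 319.6, 481 and 589.8 TPM in the diaphragm. Cd36, the fatty acid translocase, was at 651, 991, 350.2, 426 and 790.0 TPM and 93.7, 41.8, 103, 147 and 117 TPM. Neither gene overlapped between the tissues, and the differences were 2.90 ± 0.33 (adjusted p = 0.00189) and 2.72 ± 0.35 (adjusted p = 0.00436). Fabp5, Lpl (lipoprotein lipase) and Apoe (apolipoprotein E) were also higher in the heart, by 3.56 ± 0.50, 1.79 ± 0.30 and 1.82 ± 0.24 (adjusted p = 0.00647, 0.0167 and 0.00436), so that 5 of the 15 members tested in the list of endothelial lipid handling were higher in the heart and 1 was higher in the diaphragm. The median difference of the list was 0.78, against 0.10 over all genes tested. The transcription factor gene Tcf15 was also heart-higher with either mouse block and without the diaphragm library of mouse 4. Heart BECs had 10777 ± 739 TPM of Fabp4 and 2910.0 ± 698 TPM of Cd36, above both LEC populations. Gpihbp1, which carries lipoprotein lipase to the capillary lumen, was at 1079.5 ± 290.2 TPM in heart LECs, 1285 ± 214 TPM in diaphragm LECs (−0.24 ± 0.14, adjusted p = 0.759) and 2238 ± 346 TPM in heart BECs.

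Receptors of vessel growth divided between the tissues. Flt1, which encodes VEGFR1, was at 114, 169, 93.6, 115 and 191 TPM in the heart and 8.88, 4.08, 25.8, 18.2 and 35.8 TPM in the diaphragm (2.98 ± 0.45, adjusted p = 0.00981). Nrp1, a co-receptor of VEGF-A and semaphorins, was at 138, 236, 67.7, 102 and 359 TPM and 13.1, 14.8, 24.7, 34.3 and 41.9 TPM (2.58 ± 0.46, adjusted p = 0.0223). Both were without overlap and were higher in heart BECs, at 526 ± 84.1 and 773 ± 56.2 TPM. Flt4, the receptor of VEGF-C, was higher in the diaphragm, and Kdr, the main VEGF-A receptor of endothelium, was at 412 ± 72.3 TPM in the heart and 412 ± 84 TPM in the diaphragm (−0.10 ± 0.16, adjusted p = 0.95). These made 2 heart-higher and 1 diaphragm-higher gene among the 10 tested VEGF ligands and receptors. The ligand gene Vegfc was also heart-higher with the fixed block. Aplnr, the apelin receptor, was at 44.8, 70.8, 27.6, 30.5 and 122 TPM against 6.48, 0.611, 1.83, 4.68 and 3.28 TPM (3.77 ± 0.51, adjusted p = 0.00468), with 334 ± 83.2 TPM in heart BECs. Among the blood endothelium markers, 5 of 10 passed (7 with either mouse block, adding Cd300lg and Sox17), all higher in the heart, which were Flt1, Fabp4, Car4 (a membrane carbonic anhydrase of capillaries, 3.27 ± 0.48), Rgcc (a cell cycle regulator, 2.90 ± 0.40) and Ly6c1 (a Ly6 family surface protein, 3.07 ± 0.46). Art3 and Lims2, an ADP-ribosyltransferase family member and a focal adhesion adaptor, differed by 3.42 ± 0.34 (adjusted p = 0.000583) and 3.20 ± 0.46 (adjusted p = 0.00719) and had 274 ± 35.4 and 1103 ± 195 TPM in heart BECs.

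Of 36 listed matrix glycoproteins and proteoglycans tested, 6 were higher in the heart, against 0.415% of all genes tested. None of the list passed in the other direction, and its median difference was 0.44, against 0.10 over all genes tested. The list does not hold Fbln7 and Fndc1, which were higher in the diaphragm and are described below. Postn, the matricellular protein periostin, was at 199.6, 404, 449, 918 and 630.5 TPM in the heart and 52.7, 35.7, 33, 64 and 24.7 TPM in the diaphragm, without overlap (3.39 ± 0.33, adjusted p = 0.000477). Its mean was 54.8 ± 21.6 TPM in heart BECs and 591 ± 65.8 TPM in the cardiomyocyte fraction. Fn1, fibronectin, which also forms the core of lymphatic valve leaflets, was at 182, 234, 329, 341 and 306 TPM against 77.2, 74.2, 59.6, 87.7 and 134 TPM (1.50 ± 0.17, adjusted p = 0.00189) and at 68.3 ± 17.5 TPM in heart blood endothelium and 57 ± 14.8 TPM in the cardiomyocyte fraction. Mgp, the calcification inhibitor matrix Gla protein, averaged 981 ± 200.4 TPM in the heart and 233 ± 48.9 TPM in the diaphragm (2.04 ± 0.20, adjusted p = 0.000477). Sparc, Sparcl1 and Ecm1 were the others, at 2.42 ± 0.35, 2.59 ± 0.48 and 2.19 ± 0.32. The counts were 9 heart-higher and 1 diaphragm-higher member with the random block, 10 and 2 with the fixed block, and 7 and 0 (adding Ltbp1) without the diaphragm library of mouse 4. Of 37 collagen chains tested by limma, 0 passed (7 at an unadjusted p under 0.05), and 1, Col4a1, passed with the random block and without the diaphragm library of mouse 4. The 12 fibroblast markers, Postn among them, summed to 1270 to 2804 TPM in heart LECs, 409 to 1451 TPM in diaphragm LECs and 5003 to 6904 TPM in the cardiomyocyte fraction, and 1 of the 12, Postn, passed. The count was 4 with the random block (adding Pdgfra, Dcn and Tcf21), 3 with the fixed block and 2 without the diaphragm library of mouse 4. Of the 11 mural cell markers 2, Rgs5 and Pdgfrb, were higher in the heart (3, adding Des, in the other fits), and the list summed to 145 to 936 TPM there, with 936 in mouse 3, and to 76.0 to 146 TPM in the diaphragm. Their part in the matrix genes was not tested.

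Sarcomere transcripts also differed. The ventricular myosin light chains Myl2 and Myl3 and the troponin C of heart and slow muscle, Tnnc1, were higher in heart LECs, by 3.71 ± 0.62 (adjusted p = 0.016), 3.65 ± 0.71 (adjusted p = 0.0363) and 3.36 ± 0.67 (adjusted p = 0.0446, and 0.119 with the fixed block). Tnnc1 was at 32.9, 72.9, 29.2, 115 and 106 TPM in the heart and 25.4, 22.2, 7.72, 4.63 and 0 TPM in the diaphragm, while Myl2 and Myl3 overlapped. The cardiomyocyte fraction held 1395 ± 535 TPM of Tnnc1 and 1828 ± 446 TPM of Myl2. The 11 cardiomyocyte markers, which do not include these genes, summed to 205 to 1097 TPM in heart LECs and to 1539, 632, 1128, 54.8 and 33.9 TPM in the diaphragm libraries, and 0 of 11 passed in limma (6 at an unadjusted p under 0.05). Tnnt2 passed, higher in the heart, without the diaphragm library of mouse 4 and with the random block. The atrial peptide transcript Nppa was at 13.8, 171, 27.6, 166 and 65.8 TPM in heart LECs and at 893, 406, 606, 13.6 and 8.19 TPM in diaphragm LECs. Its highest values were thus in the diaphragm libraries of mice 3, 4 and 15. Without those of mice 3 and 4, an alternative chosen after the values were seen, 269 genes passed, 134 of the 161 among them. All 161, which were chosen with the remaining libraries included, kept their direction. On the diaphragm side, Tnnc2, the troponin C of fast skeletal muscle, was at 17.6, 12.2, 2.01, 17.7 and 35.6 TPM and at 2.16, 0, 0, 0 and 0 TPM in the heart (−3.54 ± 0.68, adjusted p = 0.036), with an overlap, while the 17 skeletal muscle markers, Tnnc2 not among them, summed to 57.9 to 120 TPM in the diaphragm and 22.6 to 67.7 TPM in the heart, and 0 of the 10 tested passed (5 unadjusted). Tnni2 passed, higher in the diaphragm, with either mouse block and without the diaphragm library of mouse 4. The part of muscle RNA in these genes was not tested.

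Among 30 tested transcription factors of regional development, 1 passed, and it was Gata4, a zinc finger factor of the developing heart. Gata4 was at 25.3, 24.4, 25.1, 48.5 and 50.5 TPM in the heart libraries and at 0.485, 2.47, 1.52, 3.71 and 11.4 TPM in the diaphragm libraries, without overlap (2.85 ± 0.44, adjusted p = 0.0109). It averaged 18.7 ± 6.13 TPM in heart BECs and 37.2 ± 10.9 TPM in the cardiomyocyte fraction. Its relative Gata6 was at 22.8, 29.6, 25, 35.1 and 23.6 TPM and 6.44, 1.11, 2.72, 5.86 and 15.8 TPM, without overlap but with a difference of 2.09 ± 0.47 that did not pass (adjusted p = 0.0695). The median difference of the list was 0.54, against 0.10 over all genes tested. Tcf21, also a fibroblast marker, passed beside Gata4 without the diaphragm library of mouse 4. With the random block Gata6, Hand2 and Tcf21 did (adjusted p = 0.0273, 0.0397 and 0.0373), all higher in the heart. With the fixed block Gata4 alone passed. Hand2os1, a long non-coding RNA beside the heart factor Hand2, was at 42.3, 90.4, 69.3, 141 and 121 TPM against 8.69, 12.9, 19, 5.47 and 10 TPM (2.90 ± 0.38, adjusted p = 0.00436) and at 34.5 ± 9.45 TPM in heart BECs. Hand2 itself was at 2.23, 2.43, 4.19, 6.54 and 7.05 TPM and 0, 0.978, 0, 0.408 and 0 TPM, again without overlap, with a difference that did not pass (1.92 ± 0.46, adjusted p = 0.0998). The printed Hand2os1 window shares 223 bases with the window of Hand2 on the other strand. It lies within the annotated Hand2os1 gene given next, so its RefSeq start is not the start of that annotation. The annotated genes overlap by 3251 bases (Hand2 at chr8:57320983-57324633 on the + strand, Hand2os1 at chr8:57281117-57324233 on the - strand), and since strand use in the counting is not given in the sources used here, reads of the shared part cannot be told apart.

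Of the Hox genes, which set position along the body axis, 19 were tested and 14 estimates were below 0. The median was −0.47, against 0.10 over all genes tested. Hoxb7 alone passed, at 1.53, 2.41, 0.815, 1.95 and 1.34 TPM in the heart and 8, 7.58, 13.5, 10.2 and 12.9 TPM in the diaphragm (−2.09 ± 0.41, adjusted p = 0.0396), without overlap. Hoxa7 was at 10.9 ± 6.28 TPM in the heart and 33.7 ± 15 TPM in the diaphragm (−1.90 ± 0.45, adjusted p = 0.0906), and Hoxd9 at 34.7 ± 9.32 and 59.3 ± 7.5 TPM (−0.80 ± 0.23, adjusted p = 0.206), and neither passed. Hoxa7 passed with the random block (adjusted p = 0.0435) and Hoxd9 with the fixed block (adjusted p = 0.0436). Means in heart BECs were 0.523 ± 0.618 TPM for Hoxb7, 2.12 ± 0.55 TPM for Hoxa7 and 0.231 ± 0.304 TPM for Hoxd9.

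BMP signals raise the Id genes and the inhibitory Smads, and of 22 members tested 5 were higher in the heart (Id1, Id3, Smad6, Smad7 and the co-receptor Eng) and 1, the ligand Tgfb1, in the diaphragm. Id1 was at 1891, 2193, 1536, 1155 and 2252 TPM against 550.0, 769, 726, 505 and 809 TPM, and Id3 at 2558, 2679, 2194, 1827 and 2585 TPM against 1019, 1152, 881, 989.9 and 1112 TPM. Neither overlapped between the tissues (1.42 ± 0.20 and 1.20 ± 0.14, adjusted p = 0.00719 and 0.00251). Smad6 was at 24.4, 68.3, 36.5, 96.9 and 67 TPM against 4.91, 6.84, 11.1, 4.87 and 9.62 TPM (2.66 ± 0.39, adjusted p = 0.00738). Tgfb1 was at 65.9, 79.3, 95.4, 83.4 and 87.5 TPM in the heart and 112, 165, 183, 178 and 168 TPM in the diaphragm (−1.04 ± 0.17, adjusted p = 0.0145). Id1, Id3, Smad6, Smad7 and Eng were higher still in heart BECs, at means of 3069 ± 238, 3088 ± 211, 80.5 ± 29.6, 33.4 ± 10 and 658 ± 122 TPM. Without the diaphragm library of mouse 4 and with either mouse block, Bmp6 and Id2 passed as well, which made 7 heart-higher members. Tgfbr2 was also diaphragm-higher with the fixed block.

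On the diaphragm side, 4 of the 16 lymphatic identity genes were higher, against 0.176% of all genes tested, and none was higher in the heart. Lyve1 was at 1403, 1208, 1587, 1431 and 1019 TPM in the heart libraries and at 3414, 4319, 3184, 3725 and 3805 TPM in the diaphragm libraries. No library overlapped, the means were 1329 ± 220.0 and 3689.5 ± 431 TPM (SD, n = 5 each) and the difference was −1.51 ± 0.14 (adjusted p = 0.000477). Flt4 was at 439.5, 333, 625, 432 and 377 TPM against 610.3, 883, 617, 953 and 862 TPM, with a small overlap (−0.96 ± 0.17, adjusted p = 0.0198). Stab1, a scavenger receptor, averaged 249 ± 45 and 480.1 ± 123 TPM (−0.98 ± 0.19, adjusted p = 0.0438), and Nr2f2, the venous and lymphatic factor COUP-TFII, 43.1 ± 14.2 and 87.8 ± 31.6 TPM (−1.21 ± 0.25, adjusted p = 0.0494). The other 12 did not pass. Among these, Mmrn1, which encodes the secreted multimerin-1, was at 1990.2 ± 472 and 3353 ± 632 TPM (−0.81 ± 0.18, adjusted p = 0.0606), and Ccl21a, the chemokine that draws dendritic cells into lymphatics, at 17301 ± 2649 and 26710.0 ± 7285 TPM (−0.61 ± 0.20, adjusted p = 0.292), with near-identical copies in the genome that can share its reads. Both passed without the diaphragm library of mouse 4, which gave 6 of 16. With the random block Mmrn1 passed (adjusted p = 0.011), which gave 5, and with the fixed block Mmrn1, Ccl21a and Pdpn did (adjusted p = 0.00692, 0.00173 and 0.0483), which gave 7. The median of the list was −0.61, 14 of its 16 estimates were below 0, and its sum was 19400 to 26530 TPM in heart LECs, 24610 to 44900 TPM in diaphragm LECs and 1358 to 1670 TPM in heart BECs.

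Genes of valves and collecting vessels were divided, with Fn1 higher in the heart and Gja1 in the diaphragm among 20 tested. Gja1, which encodes the gap junction protein connexin 43, was at 443, 378, 367, 333 and 392 TPM against 614, 847, 627, 795 and 862 TPM, without overlap (−0.99 ± 0.15, adjusted p = 0.0103). The connexin 37 gene Gja4 was at 233 ± 49.6 and 103 ± 37.1 TPM (1.11 ± 0.25, adjusted p = 0.0691), and Foxc2, a factor needed for valves, at 124 ± 40.3 and 71.4 ± 18.5 TPM (0.81 ± 0.21, adjusted p = 0.147). Gja4 and the factor Gata2 passed, higher in the heart, when the diaphragm library of mouse 4 was left out and with the random block, and Gata2 with the fixed block.

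Of the 48 diaphragm-higher genes, 34 (70.8%) had neither heart BECs nor the cardiomyocyte fraction above heart LECs, close to the 69.7% of all genes tested. Heart LECs are the lower LEC population for these genes, so this share does not set the other heart cells against diaphragm LECs. The largest diaphragm-higher difference under the naming rule was in Slpi, a secreted inhibitor of leukocyte proteases, at 2.5, 124, 38.9, 24.2 and 17.6 TPM in the diaphragm and 0, 0, 0.624, 0 and 0 TPM in the heart (−4.60 ± 0.73, adjusted p = 0.0117). Fabp1, the fatty acid carrier of liver and gut, was at 6.54, 27.6, 14.7, 17.4 and 5.59 TPM in the diaphragm and was listed at 0 in all 5 heart libraries (adjusted p = 0.00436, with no fold given against 0). Beside it, the apolipoprotein transcript Apoa1, 1 of 6 hepatocyte markers, was at 0.914, 2.35, 5.56, 22.2 and 15.8 TPM and also listed at 0 in every heart library (adjusted p = 0.0446, and 0.0796 with the fixed block), and the 6 markers summed to 3.20, 42.4, 84.1, 67.8 and 55.3 TPM in the diaphragm libraries. In mouse 3 the hepatocyte sum was below that of every heart library, while the other diaphragm sums were above that of every heart library. The part of liver RNA was not tested.

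Lgals3, which encodes galectin-3, was at 61.6, 167, 80.7, 75.3 and 50.7 TPM in the diaphragm and 20.2, 17.4, 9.47, 22 and 1.11 TPM in the heart, and Cd2, an adhesion receptor best known on T cells, at 52.8, 50.8, 28.6, 38.8 and 70.6 TPM and 7.2, 5.13, 24, 10.7 and 14.4 TPM. Neither overlapped (−2.54 ± 0.45 and −2.28 ± 0.28, adjusted p = 0.0237 and 0.00251). The 11 macrophage markers summed to 95.6 to 420 TPM in diaphragm LECs and 34.7 to 243 TPM in heart LECs, with 0 of 10 passing (1 unadjusted, and Lyz2 with the fixed block), and the 6 lymphocyte markers to 12.8 to 44.5 and 6.95 to 18.8 TPM, with 0 of 4 passing (1 unadjusted). Their part was not tested. Cxcl13, the B cell chemokine, was at 20.3, 35.9, 0, 54.1 and 27.4 TPM in the diaphragm, with the 0 in mouse 4, and at 0.242, 0.238, 0, 0 and 0 TPM in the heart (−4.23 ± 0.82, adjusted p = 0.0363, and 9.95e-05 without that library), the only 1 of 26 chemokine ligands tested to pass in all 10 libraries. Without that library, and also with the fixed block, Ccl21a was also diaphragm-higher and Cxcl16 heart-higher.

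**Figure D4:**
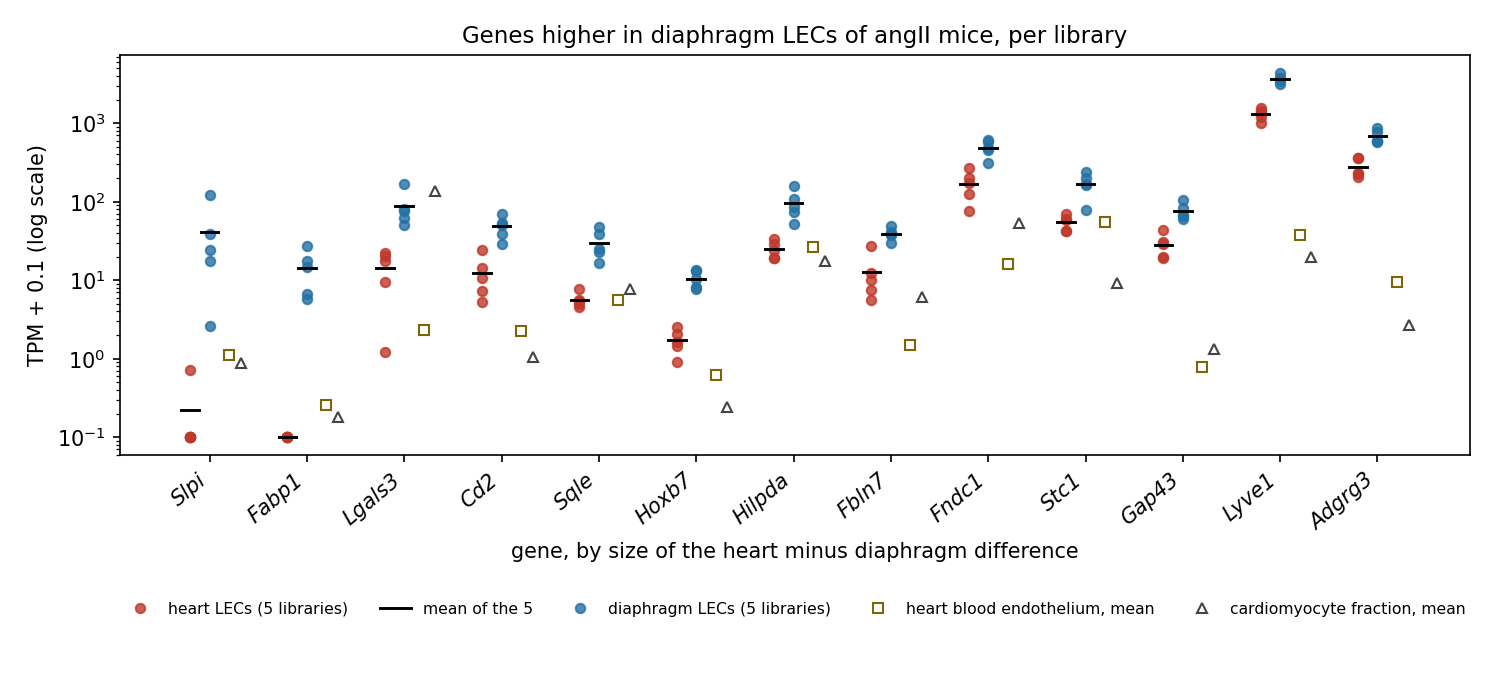
TPM plus 0.1 on a log scale is shown for the genes with the largest diaphragm-higher difference under the naming rule, as far as they are reported here. Blue points are the 5 diaphragm LEC libraries and red points the 5 heart LEC libraries, with bars at their means, and open symbols are the means of heart BECs and the cardiomyocyte fraction. Every blue point lies above every red point of its gene, as the naming rule requires, and Fabp1 sits at 0 TPM in all red points.

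Adgrg3, an adhesion G protein-coupled receptor, was at 582, 586, 784, 875 and 589.9 TPM against 227, 230.4, 360.0, 361 and 207 TPM (−1.38 ± 0.20, adjusted p = 0.00719), with 9.53 ± 3.1 TPM in heart BECs. Fndc1, a fibronectin domain protein, was at 483, 612, 309.9, 573 and 463 TPM against 202, 75, 273, 173 and 125 TPM (−1.72 ± 0.30, adjusted p = 0.0196). In both, the lowest diaphragm library lay above the highest heart library. Gap43, a growth cone protein of neurons, averaged 76.1 ± 17.5 and 28.2 ± 9.76 TPM (−1.54 ± 0.24, adjusted p = 0.0113) and 0.677 ± 0.283 TPM in heart BECs. Fbln7, a fibulin of the matrix, averaged 39.3 ± 7 and 12.5 ± 8.53 TPM (−1.83 ± 0.37, adjusted p = 0.0446). Hilpda, a lipid droplet protein known to rise in hypoxia, averaged 95.6 ± 41.2 and 24.8 ± 6.37 TPM (−1.98 ± 0.26, adjusted p = 0.00436), and Stc1, the secreted hormone stanniocalcin, 169.9 ± 59.6 and 54.6 ± 12 TPM (−1.62 ± 0.25, adjusted p = 0.0109). Among called genes outside the naming rule, chosen after their values were seen, were Nts (the peptide neurotensin, 2473 ± 849.9 and 1064 ± 239 TPM, −1.14 ± 0.22), Fgl2 (a membrane prothrombinase, 2618 ± 479 and 1214 ± 243 TPM, −1.11 ± 0.18), and both subunits of the nitric oxide receptor guanylate cyclase, Gucy1a1 (−1.28 ± 0.22) and Gucy1b1 (−1.16 ± 0.23), at adjusted p = 0.0396, 0.0135, 0.0191 and 0.043.

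Genes of cholesterol synthesis were among those higher in the diaphragm. Sqle, squalene epoxidase, was at 5.53, 4.46, 7.65, 5.33 and 4.92 TPM in the heart and 16.4, 46.9, 24.6, 38.3 and 22.5 TPM in the diaphragm (−2.24 ± 0.32, adjusted p = 0.00719). Every diaphragm library lay above every heart library. Msmo1, a sterol methyl oxidase, and Srebf2, the factor that drives the pathway, were at 29.3 ± 6.7 and 41.2 ± 2.84 TPM in the heart and 71.9 ± 16.8 and 81 ± 11.2 TPM in the diaphragm (−1.31 ± 0.23 and −0.98 ± 0.18, adjusted p = 0.0191 and 0.0305). In a list of 25 synthesis and uptake genes drawn up after these values were seen, 24 were tested and 20 estimates were below 0. Their median was −0.99, against 0.10 over all genes tested. Of the 24 genes, 4 were diaphragm-higher and 0 were heart-higher. Without the diaphragm library of mouse 4, 8 of them were diaphragm-higher, adding Hmgcs1, Idi1, Sc5d and Insig1. With the random and the fixed block 6 and 5 were. In all 10 libraries Hmgcs1 was at 24.8 ± 3.45 and 51.3 ± 16.9 TPM (−1.06 ± 0.25, adjusted p = 0.0921). The letters TCACNCCAC of the sterol regulatory element were in 1 of 20 promoters of these genes (5.0%), that of Hmgcs1, against 408 of 32851 promoters of all genes (1.24%).

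Among cell surface lists, 2 of 15 junction genes (Esam, 1.90 ± 0.30, and Jam3, 1.50 ± 0.30), 1 of 14 leukocyte adhesion genes (Jam3) and 1 of 29 semaphorins, plexins and neuropilins (Nrp1) were higher in the heart, and 0 of 6 chemokine scavenging and endothelial chemokine receptors passed in limma (4 at an unadjusted p under 0.05). Without the diaphragm library of mouse 4, Icam1 and Thy1 (leukocyte adhesion), Ackr2 and Ackr3 (chemokine receptors) and Sema6a were diaphragm-higher and Sema3g was heart-higher. Adhesion then had 1 heart-higher and 2 diaphragm-higher genes. With the random block Jam2 (in the junction and adhesion lists) and Sema3g were heart-higher and Ackr2 and Sema6a diaphragm-higher. With the fixed block Jam2 and Vcam1 were heart-higher and Icam1, Ackr2 and Ackr3 diaphragm-higher. The other pathway lists gave no gene past the threshold. Over all 27250 genes tested, 2314 had an unadjusted p under 0.05 (limma). Of the genes tested, 0 of 10 passed in the renin-angiotensin system (limma, 0 at an unadjusted p under 0.05), 0 of 14 in the Notch pathway (7 unadjusted), 0 of 24 in the Wnt pathway (2 unadjusted), 0 of 9 among angiopoietins and Tie receptors (1 unadjusted), 0 of 10 in sphingosine 1-phosphate signalling (3 unadjusted) and 0 of 17 in the cell cycle (5 unadjusted). These counts were the same with either mouse block and without the diaphragm library of mouse 4, except that Notch4, Jag2 and Nrarp were heart-higher with the random block and Notch4 with the fixed block. Of the 17 cell cycle estimates 14 were above 0, with a median of 0.56, against 0.10 over all genes tested. The cell cycle gene Ube2c, which that list does not hold, was higher in the heart. It averaged 6.32 and 0.451 TPM (2.59 ± 0.47, limma adjusted p = 0.026). The angiotensin receptor Agtr1a was at 1.45 ± 1.34 TPM in the heart and 1.78 ± 1.66 TPM in the diaphragm (−0.04 ± 0.53, adjusted p = 0.994), and the converting enzyme Ace at 22.4 ± 2.77 and 22.3 ± 6.49 TPM (−0.07 ± 0.23, adjusted p = 0.977).

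The same tissue contrast was then read in mice that shared no library with the angII comparison. In ctrl mice 165 of 19618 genes tested passed (0.841%) and in angII+VEGFC mice 434 of 17070 (2.54%), the latter from 3 against 3 libraries. Of the 113 heart-higher genes, 111 were tested in ctrl, 105 had the same direction and 43 passed there. Of the 48 diaphragm-higher genes, 47 were tested in ctrl, all 47 had the same direction and 21 passed. In angII+VEGFC mice, 105 of 107 and 47 of 47 had the same direction and 84 and 36 passed. Over all genes tested in both, the same direction was seen for 62.5% with ctrl and 61.5% with angII+VEGFC. Past the threshold in all 3 groups of mice were 64 genes, 43 higher in the heart, among them Aqp8, Ahsg, Ephx2, Postn, Gata4, Fn1 and Id1, and 21 higher in the diaphragm, among them Lyve1, Flt4, Slpi and Gja1. The Lyve1 difference was −1.53 ± 0.13 in ctrl (adjusted p = 9.41e-05) and −1.48 ± 0.13 in angII+VEGFC (adjusted p = 8.53e-05), beside −1.51 ± 0.14 in angII, and that of Ahsg was 4.29 ± 0.17 (adjusted p = 3.74e-07) and 4.83 ± 0.16 (adjusted p = 9.31e-08), beside 3.89 ± 0.26.

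**Figure D5:**
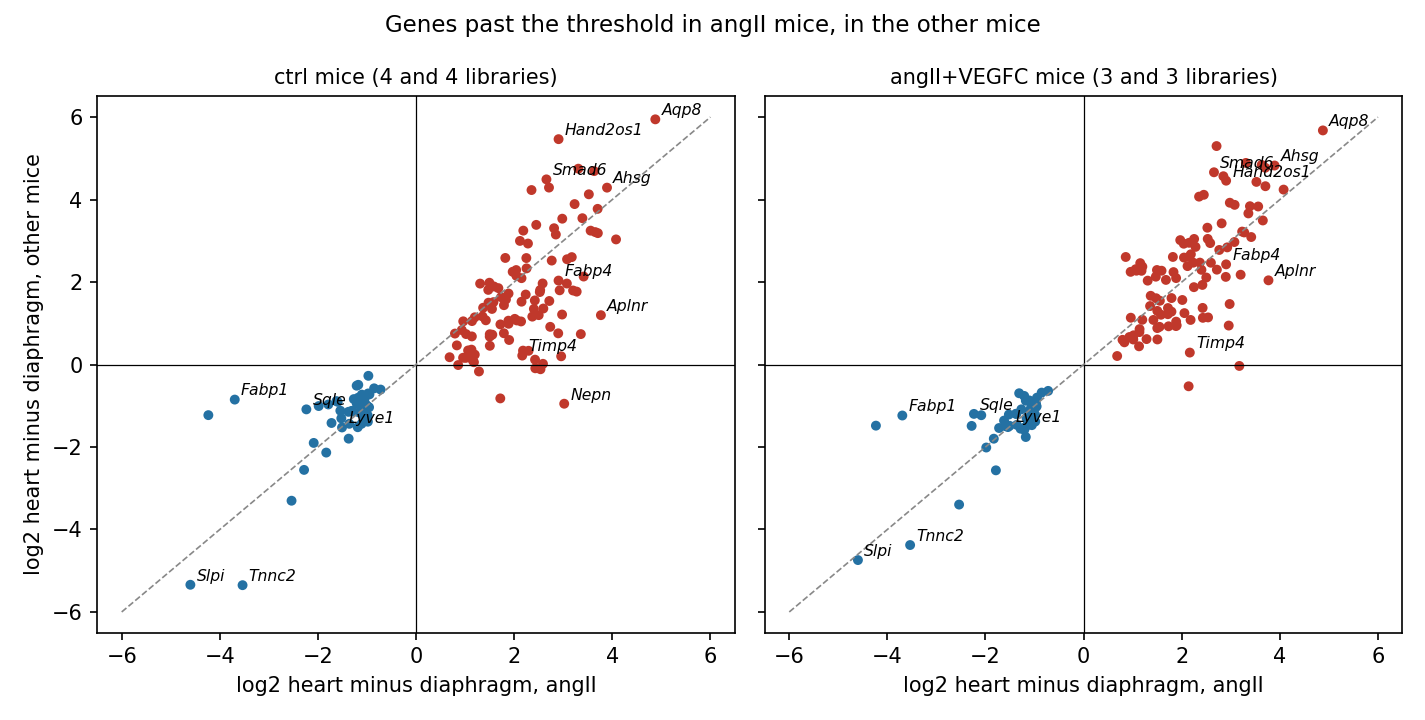
For the 161 genes that passed in angII mice, the log2 difference, heart minus diaphragm, in angII mice (horizontal axes) is set against that in ctrl mice (left) and angII+VEGFC mice (right), for genes tested there. Red genes were higher in the heart and blue genes in the diaphragm in angII mice, and the dashed line marks equal differences. All 47 blue genes lie below 0 on both vertical axes, and 6 red genes lie below 0 on the ctrl axis.

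Some genes, chosen after their values were seen, had a larger estimate in angII than in ctrl mice. The Aplnr difference was 3.77 ± 0.51 in angII and 1.20 ± 0.76 in ctrl (adjusted p = 0.596), and that of Rgcc 2.90 ± 0.40 and 0.76 ± 0.50 (adjusted p = 0.611). The difference between treatments was tested as an interaction of tissue and treatment over 24 LEC libraries. Of 31319 genes, 0 (0.0%) passed for angII against ctrl (limma, 1875 at an unadjusted p under 0.05, 5.99%, and a smallest adjusted p of 0.459) and 0 (0.0%) for angII against angII+VEGFC (867 unadjusted, 2.77%). The heart-minus-diaphragm difference was therefore not shown to depend on treatment for any gene, which does not show that it was the same.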

How the data were processed

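RNA from LECs of the heart and the diaphragm, sorted from Prox1-eGFP mice infused with angII, was sequenced by the authors, who aligned the reads to GRCm38 with STAR 2.5.3a and quantified Ensembl genes with Salmon 0.12.0 in its alignment mode. The authors deposited 1 matrix of TPM for 54752 genes, and 54723 of these have a symbol in GENCODE. TPM divides by transcript length and library total (997657 to 999929 per library here), so the read depth is unknown, no counting interval was given, and an exact 0 can be a failed estimate. The cDNA was amplified with a low-input Smart-Seq kit before library preparation, and strand use is not given in the sources used here. The labels give ages of 8 to 16 months where the methods of the study give weeks, and the labels were used.

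Groups, mouse numbers, ages and batches came from the labels. Values were transformed to log2(TPM + 1), and genes were kept if 3 or more of the 10 libraries reached 1 TPM, which left 27250. The model (limma 3.58.1, R 4.3.3, variance trend on level) had tissue, age and batch as terms and Benjamini-Hochberg adjusted p-values at 0.05. The study fitted gene counts with DESeq2, adjusted for age, batch and surrogate variables, and TPM does not allow that model. The main fit had no mouse block. As a fixed block the mouse was fitted only in mice with both tissues, without the heart library of mouse 12 and the diaphragm library of mouse 4. The labels give the same animal for 4 heart and diaphragm pairs, so the mouse pairs the samples, and deviations from the tissue means of the same mouse correlated at −0.049 to 0.166 over genes. The same fit was made in ctrl and angII+VEGFC mice, and the interactions used all 24 LEC libraries. The fitting was tested on simulated data. Of 200 genes changed by 2 on the log2 scale 103 passed, and of 200 changed by 3, 170 passed. Among the 27050 unchanged genes 2 and 6 passed. A gene that did not pass can thus still differ between the tissues. Summaries and figures were made in Python 3.11.15 with matplotlib 3.10.9.

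The genes named are, in each direction, the 15 with the largest difference among those past the threshold, with no overlap between tissues, a mean of 10 TPM or more in the higher tissue and a symbol that is not a clone or Riken name. Added to these were the 10 such heart genes below heart LECs in the cardiomyocyte fraction, the 10 such diaphragm genes outside the muscle and mesothelium lists, list members that passed, lymphatic identity genes and marker lists. Other genes were named after their values were seen. Results of a few genes that the rule or the lists hold are not reported here. The comparison, members and lists were chosen with earlier results of these data known. Promoters are from RefSeq, GRCm38.p6.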

Additional observations from a re-analysis of the deposited data

Results flagged for a closer look

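Within the 5 libraries of a tissue, 8 of 166 sets of values (83 genes in 2 tissues) had a highest or lowest library far from the other 4 on the log2 scale, by a gap above 0.71 of the whole range, which chance gives in about 1 of 20 sets. In the diaphragm library of mouse 4, Cxcl13 was listed at 0.0 TPM against 20.3 to 54.1 TPM in the other 4, and B2m was at 1007 TPM against 1504 to 1646 TPM. In the diaphragm library of mouse 3, Prox1 was at 174.6 TPM against 224 to 245 TPM and Tgfb1 at 111.7 TPM against 165 to 183 TPM. Mgp was at 150.4 TPM in the diaphragm library of mouse 15 against 238 to 279.5 TPM. In the heart library of mouse 3, Cytl1 was at 51.0 TPM against 192 to 276 TPM and Pdgfrb at 41.6 TPM against 21.6 to 25.0 TPM. That library also held the highest sum of mural cell markers, 936 TPM. Slpi was at 0.624 TPM in the heart library of mouse 12 and listed at 0 in the other 4 heart libraries.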

How the results depend on the processing

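The count of 161 genes in angII mice became 74 with no filter on low values, 428 with 1 surrogate variable, 395 with the mouse as a fixed replicate block, 372 with it as a random effect (correlation 0.31), 308 with all 24 LEC libraries in 1 model, 427 in the 4 mice with both tissues, 269 without the diaphragm libraries of mice 3 and 4 (an alternative chosen after the data were seen) and 29 to 337 with each library left out. It was within 1.5 times the count with a pseudocount of 0.1 (112), no covariates (229), quantile normalization (131), 1 TPM in 5 or more libraries (179) and median-of-ratios scaling (185). With the number of genes at 1 TPM as a covariate it was 116 (89 and 27), which held 90 of the 161. All 161 kept their direction in each of these where they were tested, but they were chosen in the same libraries. The fixed block used only the 4 mice with both tissues, so it shares its libraries with the fit of those mice. Quantile normalization moved the median difference over all genes from 0.10 to −0.02, and the heart-higher share of the calls from 70.2% to 67.9%. The ctrl count of 165 was 109 with no filter and 83 to 174 with each library left out. The angII+VEGFC count of 434 was 281 with a pseudocount of 0.1 and 121 with no filter. The interaction with ctrl gave 0 to 1 gene and that with angII+VEGFC 0 genes with each library left out. The difference in the number of genes at 1 TPM was 510.4 to 1995.2 with each library left out.

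Of the genes not called, Sox18 (0.03) turned to −0.021 with mouse in the model as a fixed block or in the 4 mice with both tissues, and was −0.13 to 0.20 with single libraries left out (−0.07, −0.02, −0.01 and −0.13 without diaphragm replicates 2 and 3, heart replicate 5 and diaphragm replicate 5). Itga9 (−0.18) turned to 0.050 in the same 2 fits, was −0.45 to 0.21 with single libraries left out (0.03 and 0.21 without heart replicate 1 and diaphragm replicate 5), and was 0.0041 without the diaphragm libraries of mice 3 and 4. The causes were not tested. With 5 libraries a tissue and no read counts, genes near the filter have the least certain values.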

Other observations

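Of the 13 proteins encoded by the mitochondrial genome, 5 had transcripts that passed, all higher in heart LECs (mt-Nd1, mt-Nd2, mt-Co2, mt-Co3 and mt-Cytb, the last at 1.20 ± 0.18, limma adjusted p = 0.00981). All 13 estimates were above 0, with a median of 0.96, against 0.10 over all genes tested. Without the diaphragm library of mouse 4, 11 passed, and 9 and 12 with the mouse as a random and as a fixed block. This list was drawn up after the values were seen, and near-identical nuclear copies can share the reads. The mt-Co3 mean was 4024 ± 1028 TPM in heart LECs, 2019 ± 606 TPM in diaphragm LECs and 29763 ± 6049.6 TPM in the cardiomyocyte fraction (SD, n = 5 each). The mt-Co3 difference was 0.06 ± 0.31 in ctrl mice (adjusted p = 0.957) and 2.27 ± 0.30 in angII+VEGFC mice (adjusted p = 0.00143).

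In the antigen presentation list, 1 of 20 genes tested was higher in the heart. This was B2m, the light chain of MHC class I, at 2900.2 ± 693 and 1481 ± 271 TPM (0.93 ± 0.19, adjusted p = 0.0467), beside the class I gene H2-K1 at 1371 ± 416 and 701 ± 103 TPM (0.87 ± 0.18, adjusted p = 0.0571). H2-D1 passed without the diaphragm library of mouse 4, and H2-K1 and H2-D1 with the random block, all higher in the heart, while the fixed block gave 5 heart-higher genes and 1 diaphragm-higher gene, H2-Eb1. The class I gene H2-Q7, which the list does not hold, passed in all 3 groups of mice. Related class I genes can share reads. In heart BECs B2m and H2-K1 were at 5203 ± 591 and 2314 ± 394 TPM. Cd74, the class II invariant chain, averaged 62.7 ± 56.2 TPM in the heart and 141 ± 70.1 TPM in the diaphragm (−1.46 ± 0.50, adjusted p = 0.342). Of 24 interferon response genes, 22 estimates were above 0, with a median of 0.53, against 0.10 over all genes tested. In this list 1 gene passed, Oasl2 (1.79 ± 0.34, adjusted p = 0.0305), against 0.415% of all genes tested that were heart-higher. The count was 3 without the diaphragm library of mouse 4 (adding Ifit3 and Ifi27l2a), 4 with the random block and 5 with the fixed block, all higher in the heart. Of 25 immediate early and dissociation genes, the heat shock gene Hspa1a passed (1.58 ± 0.30, adjusted p = 0.036), and Zfp36 was diaphragm-higher in those 3 other fits.

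The chemokine scavenging receptor Ackr2, known from lymphatics, was at 126, 140.0, 133, 164 and 103 TPM (heart) and 218, 276, 162, 227 and 227 TPM (diaphragm), a difference of −0.75 ± 0.16 (adjusted p = 0.0629) that passed without the diaphragm library of mouse 4 (adjusted p = 0.0145) and with either mouse block (adjusted p = 0.0159 and 0.0237). Cytl1, a secreted cytokine-like protein in the endocardium list, was at 51, 276, 192, 253 and 230.0 TPM against 7.08, 21.5, 15.2, 19 and 56.5 TPM (2.71 ± 0.36, adjusted p = 0.00468), the 1 of 5 endocardium markers to pass (with Npr3 in the 3 other fits and Tmem108 with the random block), and the list summed to 249 to 436 TPM in heart LECs and 139 to 277 TPM in diaphragm LECs. In the diaphragm libraries of mice 3, 15 and 4 the atrial transcript Myl7 was at 174, 41.3 and 168 TPM, and in those of mice 18 and 14 at 0.721 and 0.91 TPM. The erythroid markers summed to 2063 to 6532 TPM in heart LECs and 338 to 4876 TPM in diaphragm LECs, with 0 of 6 passing (2 unadjusted), and those of mesothelium to 4.36 to 254 and 15.0 to 64.8 TPM, with 0 of 7 passing (1 unadjusted). The lists of adipocyte (1 tested, 0 unadjusted), Schwann cell (4, 1) and platelet (4, 2) markers gave 0 calls in limma, and none of the 5 satellite cell markers reached the filter.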
